A study of Mus musculus with 45 samples.

Results

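The genes described here are 150 of the 23999 genes counted in mouse hepatic stellate cells (HSCs), chosen because their level was lowest at 16 weeks of Western diet (WD) and close to the chow level again at 24 weeks. The level L of a gene in a group was log2(mean CPM + 1), with CPM the count divided by the library's total and multiplied by 1000000. A gene was eligible when L was at least 4 in chow and L at 24 weeks differed from chow by less than 0.5, which held for 5188 genes. The smaller of the differences from 16 weeks to chow and from 16 to 24 weeks is called the dip, and the 150 genes with the largest dips were taken. The chow, 16-week and 24-week libraries therefore chose the genes, and their values are a description. Where counts of genes called between these groups are given, nothing is read from them.

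HSCs lie between the sinusoidal endothelium and the hepatocytes and store vitamin A as retinyl esters in lipid droplets. After liver injury they lose these droplets, take on a contractile, matrix-producing form close to a myofibroblast and become a main source of the collagen laid down in fibrosis. WD with fructose produces a slowly developing steatohepatitis, CCl4 kills hepatocytes directly, and plating HSCs on plastic activates them without other liver cells.

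Polyadenylated RNA was sequenced from 45 libraries in 13 groups, all of HSCs from male mice, with the strain written C57BL6/J in the labels and C57BL/6JBomTac in the study's methods. In WD, mice received chow and plain water (written chow) or WD with fructose in the drinking water for 12, 16 or 24 weeks, with 4 libraries each and all mice of the same age at the end. In CCl4, mice were gavaged with vehicle for 8 weeks (4 libraries) or with CCl4 for 1 week (3 libraries), 4 weeks (4 libraries) or 8 weeks (3 libraries). For the in vitro series (IVT), HSCs of healthy mice were kept in suspension for 2 hours (d0) or cultured on plastic for 1, 4, 8 or 12 days (d1 to d12), with 3 libraries each. Cells were sorted by retinoid autofluorescence, so HSCs that had lost their retinoids were not collected. The study's methods call the culture wells technical replicates but the sequenced RNA biological replicates, so that p-values in IVT may measure only the spread between wells. Libraries are named by their replicate letters A to D.

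Gene names were not used, because the counts did not follow the identifiers they are listed at. The mean CPM over the 45 libraries was taken at each identifier. Its median was 6.77 at 101 identifiers of ribosomal protein genes, which every cell transcribes at a high rate. It was 5.06 at 1558 identifiers of olfactory and vomeronasal receptor, keratin-associated and defensin genes, which are mostly silent in liver. Over all 23999 identifiers it was 5.85. Smaller lists of identifiers had medians of 72.2 CPM for housekeeping genes (n = 4), 50.9 CPM for hepatocyte genes (n = 5), 14.9 CPM for stellate genes (n = 10), 6.96 CPM for endothelial genes (n = 3) and 0.053 CPM for macrophage genes (n = 4). The housekeeping and macrophage medians are in the order expected of sorted HSCs and the stellate and hepatocyte medians are not, over few identifiers each. The cell type could therefore not be checked against its markers, and no function, pathway, sequence or position is given for any gene. Genes are numbered from 1 to 150 by their dip, and a line number was taken to stand for 1 gene throughout the 3 tables. The rank correlation of chow levels with vehicle levels, from 2 of the tables, was 0.968 over all genes and 0.901 over the 150 genes. With the d0 levels of IVT, from the remaining table, it was 0.735 over the 150 genes. No pair of the 150 genes had identical counts in the libraries.

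Total counts ranged from 2425443 to 6404105 in WD, from 2318311 to 7576527 in CCl4 and from 3556607 to 7568415 in IVT. A floor of 3 counts was equal to between 0.396 and 1.29 CPM. The rule required a level of at least 4 in chow, so the 150 genes lay far above this floor there. Their chow levels were between 4.01 and 10.58 with a median of 5.54, against a median of 5.97 over the eligible genes. Elsewhere some came near or below the floor: the lowest count among them was 7 in 16-week C and 0 in d12 C.

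Some libraries stood apart from their groups at these genes. The 150 genes held 0.929% of the counts in the 12-week library A, against 1.55%, 1.57% and 1.62% in 12-week B, C and D. They held 0.529% in 16-week C and 0.766% in 16-week D, against 1.08% in A and 1.32% in B. They held 0.870% in 24-week D and 1.05% in C, against 1.60% in A and 1.72% in B. In CCl4, the 4-week library A held 1.49%, against 1.95% to 2.04% in its other libraries. The chow libraries held between 1.51% and 1.67% and did not split in this way. In bulk RNA, fewer cells of a type and less RNA per cell cannot be told apart, and nothing in the tables says which of these a low library reflects.

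At the level of group means, the 150 genes shared a shallow trough. The dip had a median of 0.45 on the log2 scale (1.36-fold), reached 1.24 (2.36-fold) for gene 1 and ended at 0.355 (1.28-fold) for gene 150. A dip of at least 0.5 was found for 56 genes and of at least 1 for 7 genes. The median difference was -0.78 from chow to 16 weeks and 0.45 from 16 to 24 weeks, so that the level at 24 weeks was still below chow for 132 of the 150 genes, by a median of -0.26. Of the 5188 eligible genes, 2026 (39.1%) were lowest at 16 weeks among chow, 16 and 24 weeks and 1703 were highest there. The sides differed in size: 56 eligible genes were lowest at 16 weeks by at least 0.5, and 1 was highest by at least 0.5. Just inside the border, the last 3 genes had dips of 0.357, 0.357 and 0.355, and the next 3 genes outside had dips of 0.355, 0.354 and 0.354.

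**Figure D1:**
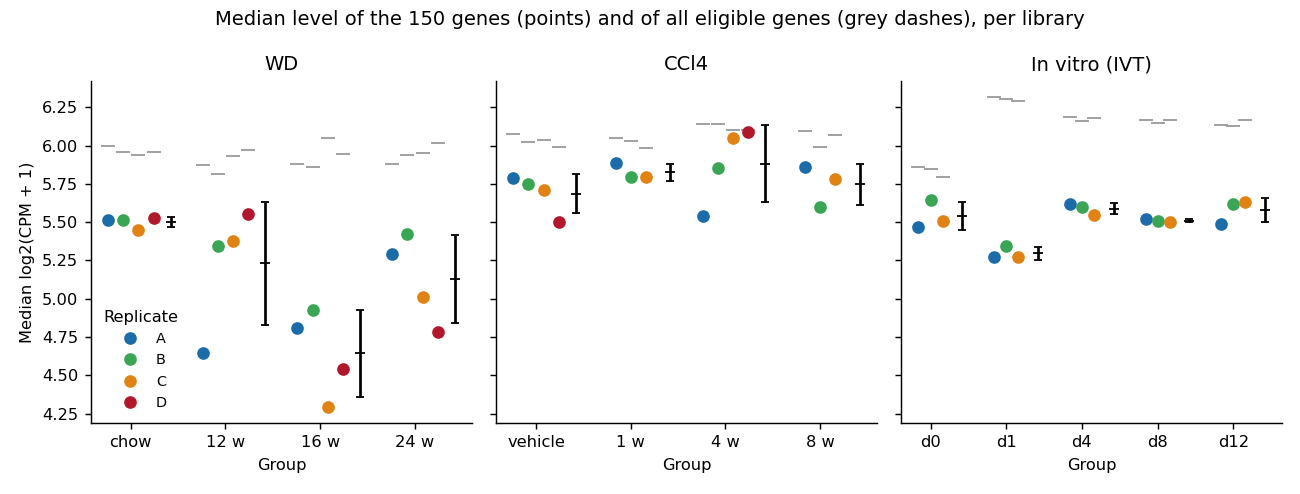
Median log2(CPM + 1) of the 150 genes in each library (points, coloured by replicate letter) and of all eligible genes (grey dashes), by group in WD, CCl4 and IVT. Black bars are the group mean ± SD of the member medians. The eligible genes are flat across WD, while the 150 genes spread from 4.29 to 5.56 over the WD libraries, with 12-week A, 16-week C and D and 24-week D low.

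The trough was uneven between libraries. The median log2(CPM + 1) of the 150 genes was 5.52, 5.51, 5.45 and 5.53 in chow A to D. It was 4.81, 4.93, 4.29 and 4.54 in 16-week A to D, and 5.29, 5.42, 5.01 and 4.78 in 24-week A to D. The 24-week D library thus lay below 16-week A and B, and the groups overlapped, while the 16-week libraries all lay below the chow libraries. As group values these medians were 5.50 ± 0.034 in chow, 4.64 ± 0.285 at 16 weeks and 5.13 ± 0.288 at 24 weeks (mean ± SD, n = 4 libraries each). The eligible genes had medians of 5.96 ± 0.024, 5.93 ± 0.086 and 5.95 ± 0.056 in the same groups.

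Counted gene by gene, all 16-week libraries were below all chow libraries for 97 of the 150 genes, against 18.2% of the eligible genes. All 16-week libraries were below all 24-week libraries for 14 genes, against 1.04% of the eligible genes, and below both groups for 11 genes, against 0.732%. These libraries chose the genes, so nothing is read from these shares. Over all 16 WD libraries, the lowest value was in 16-week C for 73 genes, in D for 23, in A for 12 and in B for 11. It was in 12-week A for 21 genes, in the 24-week libraries for 8 in all (D 5, C 2 and A 1) and in chow B for 2. Within groups, the median SD of log2(CPM + 1) of the 150 genes was 0.47 at 16 weeks and 0.49 at 24 weeks. It was 0.20 and 0.21 for the eligible genes, and in chow 0.19 against 0.15. A choice by differences of group means can itself favour genes with a large spread, so nothing is read from these values.

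Libraries C and D lay below A and B at both late times. At 16 weeks both C and D were below both A and B for 93 of the 150 genes, against 19.9% of the eligible genes. At 24 weeks this held for 97 genes, against 22.8%. In chow it held for 38 genes, against 27.3%, and at 12 weeks for 1 gene, against 10.3%. The letters carry no stated meaning across groups, and whether anything links the C and D libraries was not tested.

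Across the whole table, no difference between 24 and 16 weeks passed edgeR's quasi-likelihood test. A gene was called when its Benjamini-Hochberg adjusted p was at most 0.05 and its log2CPM, averaged over the groups compared, exceeded 2. Of 12230 genes tested, 0 were called higher and 0 lower (0.0% each), DESeq2 called 0 as well, and 196 genes were higher and 69 lower at an unadjusted p under 0.05. Of those 196 genes 46 were among the 150, which the rule fixed in that direction. Between 16 weeks and chow, where the rule also fixed the direction, 0 of the 150 were called higher and 84 lower (28.4% and 27.3% of all genes, 9.97% and 16.2% of the eligible genes), and nothing is read from that count.

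**Figure D2:**
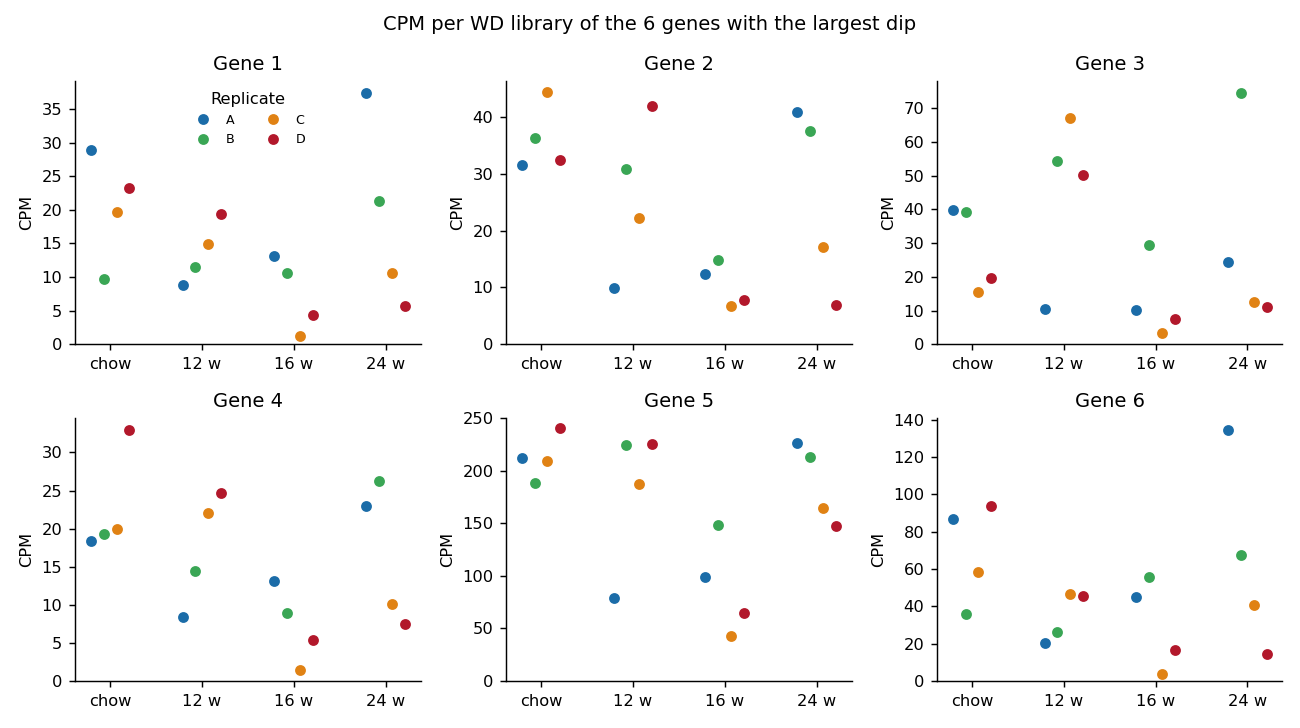
CPM of genes 1 to 6, those with the largest dips, in each of the 16 WD libraries (points coloured by replicate letter, linear axis from 0). In all 6 genes 16-week C is the lowest library, and 24-week D lies within the range of the 16-week libraries.

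The genes with the largest dips show the same libraries at work. Gene 1 had 28.9, 9.73, 19.7 and 23.3 CPM in chow A to D and 13.1, 10.7, 1.26 and 4.37 CPM in 16-week A to D. At 24 weeks it had 37.4, 21.3, 10.6 and 5.62 CPM. Its 16-week values spanned a wider range than the fold between the groups, and the groups overlapped. Gene 2 had between 31.5 and 44.4 CPM in chow and between 6.67 and 14.9 CPM at 16 weeks, with no overlap. At 24 weeks it had 40.8 and 37.5 CPM in A and B but 17.1 and 6.87 CPM in C and D. Gene 5, the most abundant of the 6, had 212, 188, 209 and 240 CPM in chow and 98.7, 148.5, 42.9 and 64.6 CPM at 16 weeks. At 24 weeks gene 5 had 227, 213, 164 and 147.6 CPM. In gene 5 no chow library reached as low as any 16-week library. Genes 3, 4 and 6 had 3.25, 1.44 and 3.97 CPM in 16-week C, each the lowest of the 16 libraries for that gene. In gene 6 the 16-week libraries A and B, with 44.8 and 55.8 CPM, lay within its chow range of 36.0 to 94.0 CPM.

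In the middle and at the end of the ranking the pattern was smaller and did not always follow the low libraries. Gene 75 had between 52.4 and 68.6 CPM in chow, 42.5, 38.4, 18.4 and 41.3 CPM at 16 weeks and 69.2, 61.6, 38.4 and 24.0 CPM at 24 weeks. Gene 76 had between 52.1 and 62.4 CPM in chow, between 27.6 and 35.5 CPM at 16 weeks and between 31.6 and 64.6 CPM at 24 weeks, where D was the highest library and not the lowest. Gene 150 had between 57.9 and 67.4 CPM in chow, between 39.3 and 45.9 CPM at 16 weeks and between 46.4 and 60.1 CPM at 24 weeks. In gene 150 all 16-week libraries were below all others in those groups. The 2 genes ranked just above it overlapped between chow and 16 weeks, with 19.7 to 31.8 against 16.3 to 23.3 CPM for the higher ranked and 32.9 to 67.8 against 29.8 to 45.2 CPM for the lower ranked. The most abundant of the 150, gene 107, held 9.65% of their counts in chow. It had 1351, 1360, 713 and 878 CPM in 16-week A to D, against 1390 to 1685 CPM in chow.

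The 12-week libraries were not used to choose the genes and show how the low values spread over the diet series. Library A was low there: it was the lowest of its group for 117 of the 150 genes, against 38.4% of the eligible genes. Its value lay a median of 0.85 on the log2 scale below the mean of 12-week B, C and D, and at least 2-fold below it for 59 of the 150 genes, against 4.14% of the eligible genes. B, C and D had member medians of 5.34, 5.38 and 5.56, close to chow, while A had 4.65, within the 16-week range. Gene 5 had 78.9 CPM in 12-week A and 224, 187 and 225 CPM in B, C and D, and gene 3 had 10.4 CPM in A and 54.4, 67.2 and 50.3 CPM in the others. The total count of A, 6045174, was the highest of its group.

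The genes low in 12-week A were set beside those low in the low late libraries. Relative to the other libraries of its group, 16-week C was at least 2-fold lower for 53 of the 150 genes, against 1.77% of the eligible genes, and 24-week D for 53, against 2.12%. The 16-week and 24-week libraries chose the genes, so these counts are a description. Of the 59 genes low in 12-week A, 41 were also low in 16-week C (69.5% of the 59 and 77.4% of the 53) and 38 in 24-week D (64.4% and 71.7%). Among the eligible genes, 215 were low in 12-week A. Of these 57 were low in 16-week C (26.5% of the 215 and 62.0% of 92) and 62 in 24-week D (28.8% and 56.4% of 110). Over the 150 genes, the deviation in 12-week A correlated with that in 24-week D (Pearson's r = 0.62, n = 150 genes) and in 16-week C (r = 0.52). Over the 5188 eligible genes these were 0.45 and 0.26. For the other libraries low at these genes, r with 12-week A over the 150 genes was 0.01 in 16-week D, -0.07 in 24-week C and -0.23 in CCl4 4-week A. Over the eligible genes these were -0.17, -0.14 and -0.13. Deviations were taken against the rest of the group, which holds 16-week C for 16-week D and 24-week D for 24-week C. That can lower their r, so no contrast between libraries is read from these values. Of the 59 genes low in 12-week A, 6 were among the 18 low in CCl4 4-week A (10.2% and 33.3%). Among the eligible genes 9 were low in both (4.19% of 215 and 9.89% of 91). These correlations are across genes measured in the same libraries, and genes are not independent replicates. What sets 12-week A, 16-week C and 24-week D apart was not tested.

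Against chow, the 12-week group had 0 genes called higher and 5 called lower among the 150 by edgeR, where 18.5% of all genes and 4.51% of the eligible genes were called higher and 7.54% and 6.34% lower, and where 1 was higher and 12 were lower at an unadjusted p under 0.05. DESeq2 called 0 higher and 12 lower among the 150, 273 and 581 among the 5188 eligible genes, and 2266 and 1428 among all genes. The chow libraries used by the rule are part of this comparison, so it is not independent of the choice. Without 12-week A no gene of the 150 was called lower, and the median log2FC of the 150 went from -0.15 to -0.01. The group mean at 12 weeks was above that at 16 weeks for all but 1 of the 150 genes, against 47.1% of the eligible genes, but the choice of genes low at 16 weeks largely fixes this count.

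The rule was also applied to 2 replicate letters at a time, chosen after seeing the data, and the dip of the 150 genes so found was read in the other 2 letters. In the letters used to choose, the median dip was between 0.47 and 0.70. In the letters not used it was between 0.11 and 0.31, against medians between -0.16 and -0.03 over the eligible genes of each choice. Genes chosen on A and B had a median dip of 0.31 in C and D, with 123 of 150 above 0, and genes chosen on C and D a median of 0.11 in A and B, with 99 of 150 above 0. These values are a description of the libraries that the rule used, with no test. The genes themselves depended on the letters: between 29 and 70 of the 150 were found again from a pair, and the choices from A and B and from C and D shared 0 genes.

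**Figure D3:**
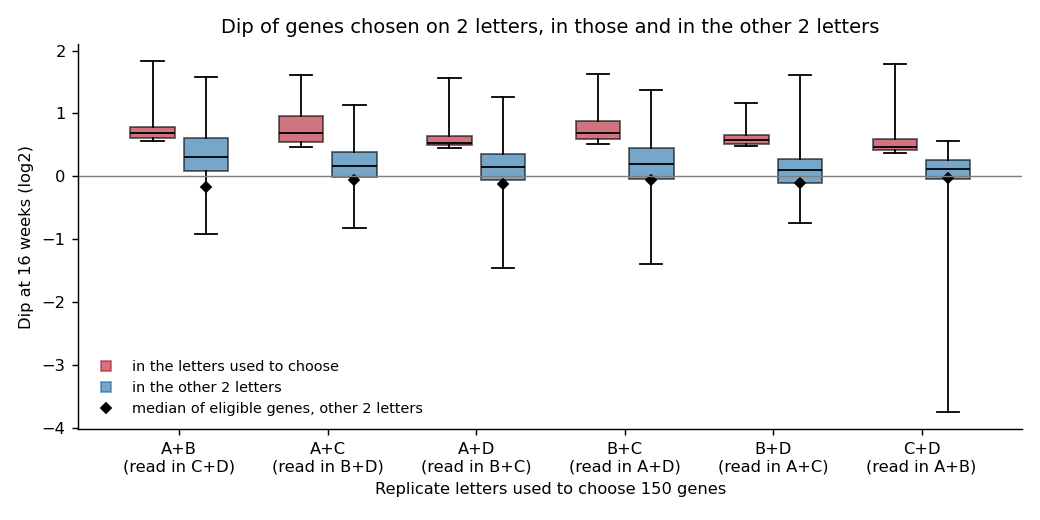
Dip at 16 weeks (log2) of the 150 genes chosen on each of the 6 pairs of replicate letters, in the letters used to choose (red) and in the other 2 letters (blue). Boxes are quartiles with the median as a line, whiskers reach the lowest and highest gene, and diamonds are the median of the eligible genes in the other 2 letters. The blue medians lie between 0.11 and 0.31, below the red medians and above the diamonds. All values are from libraries that the rule used, with no test.

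In CCl4, whose libraries the rule did not use, the 150 genes had no common direction. In both directions a larger share of them passed the test than of the eligible genes. At 1 week against vehicle, edgeR called 34 genes higher and 31 lower of 150 tested, where 13.8% of all genes and 8.48% of the eligible genes were called higher and 11.4% and 12.4% lower. At 4 weeks 40 were higher and 43 lower, against 24.0% and 13.4% higher and 26.3% and 22.8% lower. At 8 weeks 34 were higher and 46 lower, against 21.7% and 8.31% higher and 27.1% and 23.6% lower. The shares of the 150 called were 22.7%, 26.7% and 22.7% higher and 20.7%, 28.7% and 30.7% lower at 1, 4 and 8 weeks. At 1 week both shares were above those of all genes and of the eligible genes, and whether this is particular to the 150 was not tested. The shares at 4 and 8 weeks, in both directions, were near those of all genes, and the excess over the eligible genes is not read as particular to the 150. The median log2FC of the 150 was -0.05, -0.05 and -0.19 at these times, against -0.03, -0.03 and -0.07 over all genes. With library totals 45 were higher and 35 lower at 4 weeks, and 38 and 33 at 8 weeks. Of all genes 31.2% were then higher and 19.3% lower at 4 weeks, and 27.3% and 20.3% at 8 weeks. Of the eligible genes 22.9% were higher and 13.5% lower at 4 weeks, and 15.5% and 14.3% at 8 weeks. The medians of the 150 were then 0.11 and -0.05, against 0.12 and 0.07 over all genes. Without 1-week A the 1-week median was 0.04, and without 4-week A the 4-week median was 0.06. These comparisons share the vehicle libraries. The 1-week count of lower genes went from 31 to 14 without 1-week B and to 16 without 1-week A.

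**Figure D4:**
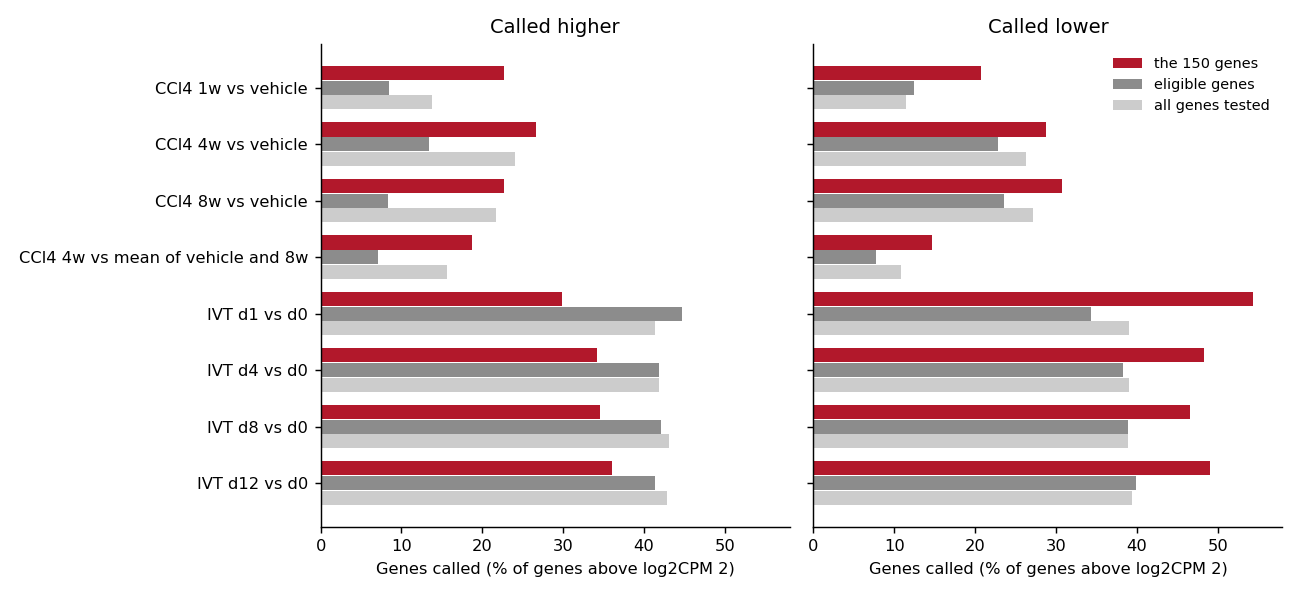
Percentage of genes called higher (left) and lower (right) by edgeR with TMM scaling in each CCl4 and IVT comparison, for the 150 genes (red), the eligible genes (dark grey) and all genes tested (light grey), each among genes with a mean log2CPM above 2. In CCl4 the red bars exceed the dark grey bars on both sides, and in IVT they lie below on the left and above on the right.

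The order of the CCl4 groups in the summed level of the 150 genes depended on the scaling. They held 1.74% ± 0.040 of the counts with vehicle (n = 4), 1.93% ± 0.089 at 1 week (n = 3), 1.87% ± 0.26 at 4 weeks (n = 4) and 1.78% ± 0.081 at 8 weeks (mean ± SD, n = 3). Divided by the TMM factors, an alternative chosen after seeing the data, these were 1.84% ± 0.11, 2.02% ± 0.17, 1.78% ± 0.26 and 1.71% ± 0.11, so that 4 and 8 weeks were above vehicle by library totals and below it by TMM. The spread at 4 weeks came from library A: it was the lowest of its group for 101 of the 150 genes, against 29.7% of the eligible genes. Among the group means, the lowest was vehicle for 47 genes, 1 week for 48, 4 weeks for 22 and 8 weeks for 33. The shares of the eligible genes were 25.04%, 36.0%, 13.1% and 25.8%, and nothing particular to the 150 is read from the counts. With TMM scaling the counts were 37, 43, 26 and 44.

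The members that fell furthest at 8 weeks of CCl4 were genes 31, 15 and 130. Gene 31 had 30.7, 23.6, 31.9 and 42.7 CPM with vehicle and 3.09, 2.16 and 5.78 CPM at 8 weeks. The groups did not overlap, and edgeR's log2FC was -3.23 ± 0.36 (SE, adjusted p = 2.1e-06). Gene 15 had 275, 329, 255 and 259 CPM with vehicle, 251, 264 and 312 CPM at 1 week and 53.9, 41.8 and 59.0 CPM at 8 weeks. Its 1-week and vehicle values overlapped, all 8-week values lay below both, and its log2FC at 8 weeks was -2.57 ± 0.25 (edgeR, adjusted p = 5.3e-07). Gene 130 had between 1869 and 2384 CPM with vehicle, between 892 and 1313 CPM at 1 week, between 189 and 610 CPM at 4 weeks and between 432 and 587 CPM at 8 weeks. Its log2FC at 8 weeks was -2.19 ± 0.34 (edgeR, adjusted p = 6.9e-05).

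The members that rose furthest were genes 57, 50 and 35. Gene 57 had 5.23, 10.3, 7.18 and 1.39 CPM with vehicle and between 48.3 and 77.8 CPM at 8 weeks, a log2FC of 3.18 ± 0.36 (edgeR, adjusted p = 2.6e-06). Its level was already between 36.6 and 45.1 CPM at 1 week. Gene 50 had between 6.94 and 17.7 CPM with vehicle, between 74.2 and 98.8 CPM at 1 week and between 59.1 and 73.6 CPM at 8 weeks. Its log2FC at 8 weeks was 2.43 ± 0.24 (edgeR, adjusted p = 6.7e-07). Gene 35 had between 134 and 248 CPM with vehicle and between 960.2 and 1082 CPM at 8 weeks, a log2FC of 2.24 ± 0.18 (edgeR, adjusted p = 7.4e-08). In WD gene 35 had 191, 264, 270 and 169 CPM in chow and 109, 257, 312 and 308 CPM at 12 weeks, which overlap. Its 16-week and 24-week levels were part of the choice and cannot be set against the rise in CCl4.

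Of the 6 genes with the largest dips, genes 1 and 5 were lower at 8 weeks of CCl4, with log2FC values of -1.20 ± 0.33 (edgeR, adjusted p = 0.0062) and -0.58 ± 0.23 (adjusted p = 0.050). Genes 3 and 6 were higher, at 0.99 ± 0.38 (edgeR, adjusted p = 0.042) and 0.82 ± 0.32 (adjusted p = 0.046). The calls of genes 3, 5 and 6 were lost without 8-week A (edgeR, adjusted p = 0.157, 0.167 and 0.221), and in all in 8, 10 and 8 of the 14 fits that left out 1 library. Gene 2 had a log2FC of 0.04 ± 0.16 and gene 4 of -0.54 ± 0.35, and neither passed the test (edgeR, adjusted p = 0.85 and 0.22).

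The shape that chose the genes was a middle time below the start and the end. In CCl4, 4 weeks was tested against the mean of vehicle and 8 weeks. A gene that falls and stays low can also be called lower in this comparison. By edgeR 28 of the 150 genes were higher at 4 weeks and 22 lower, where 15.6% of all genes and 7.15% of the eligible genes were higher and 10.8% and 7.71% lower. With library totals 37 (24.7%) were higher and 12 (8.0%) lower. Of all genes 19.8% were then higher and 7.81% lower, and of the eligible genes 12.2% and 4.66%. The median log2FC of the 150 was 0.06. The trough was thus not a common feature of these genes in CCl4. Without 4-week A 11 genes were lower, and without 4-week B 11.

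The lowest in this comparison were gene 31 (log2FC -1.84 ± 0.31, edgeR adjusted p = 4.7e-04), gene 130 (-1.35 ± 0.28, adjusted p = 0.0019) and gene 64 (-1.27 ± 0.17, adjusted p = 5.8e-05). In genes 31 and 130 the 4-week and 8-week values overlapped. Gene 64 had 9.93, 7.25, 11.2 and 12.2 CPM at 4 weeks, below all its vehicle values of 29.1 to 38.2 CPM and all its 8-week values of 14.1 to 18.9 CPM. The highest were gene 57 (1.90 ± 0.27, edgeR adjusted p = 7.5e-05), gene 7 (1.49 ± 0.34, adjusted p = 0.0043) and gene 63 (1.44 ± 0.33, adjusted p = 0.0044). Gene 7 had 62.6 CPM in 4-week A but 226, 230 and 247 CPM in B, C and D, against 15.3 to 37.0 CPM with vehicle. Gene 63 likewise had 26.7 CPM in 4-week A and 132, 89.9 and 91.3 CPM in B, C and D.

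In culture, most of the 150 genes moved, as most genes did. With TMM scaling more of them fell than rose at each time, but with library totals this held at d1 only, and at d4, d8 and d12 more rose than fell. With library totals more of all genes rose than fell at each time, with 53.6% to 54.4% higher and 28.5% to 29.5% lower. The mean log2CPM was above 2 for 147 genes at d1 and d12, for all but 1 at d4 and for all but 2 at d8. Genes that are high in only the d0 or only the cultured cells could pass in part through that group. At d1 against d0, edgeR called 44 of 147 higher and 80 lower, where 41.3% of all genes and 44.7% of the eligible genes were higher and 39.0% and 34.3% lower. At d4 51 were higher and 72 lower (all genes 41.9% and 39.0%, eligible genes 41.8% and 38.3%). At d8 51 were higher and 69 lower (all genes 43.1% and 38.9%, eligible genes 42.1% and 38.9%). At d12 53 of 147 were higher and 72 lower (all genes 42.9% and 39.4%, eligible genes 41.4% and 39.9%). The share called lower was thus 54.4% at d1 and 49.0% at d12. The median log2FC of the 150 was -0.46, -0.27, -0.19 and -0.19 from d1 to d12, against 0.04, 0.04, 0.07 and 0.06 over all genes. Without d0 B the medians were -0.25, -0.08, -0.11 and -0.11. With library totals 59, 71, 72 and 68 of the 150 were higher and 69, 63, 58 and 59 lower from d1 to d12. Of the members tested, between 40.4% and 48.6% were thus higher and between 39.2% and 47.3% lower. Of the eligible genes, between 55.1% and 61.3% were then higher and between 22.1% and 27.1% lower. The median log2FC of the 150 was then -0.11, 0.12, 0.12 and 0.13, against 0.37, 0.36, 0.38 and 0.38 over all genes. Library totals thus moved the median of all genes upward, and under both scalings the median of the 150 was below it. These comparisons share the d0 libraries.

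The genes held 1.79% ± 0.089 of the counts at d0, 1.10% ± 0.012 at d1, 1.42% ± 0.0094 at d4, 1.48% ± 0.0074 at d8 and 1.49% ± 0.0049 at d12 (mean ± SD, n = 3 each). With either scaling the summed level was lowest at d1 and higher from d4 on, with d8 and d12 differing by less than their spread and both below d0. The sum is weighted toward abundant genes. By library totals, the median log2(CPM + 1) of the 150 was 5.54 ± 0.092 at d0 and 5.30 ± 0.040 at d1. It was 5.59 ± 0.034, 5.51 ± 0.012 and 5.58 ± 0.079 at d4, d8 and d12, within the d0 spread (mean ± SD, n = 3 each). Over the eligible genes it was 5.83 at d0 and between 6.14 and 6.31 from d1 on. By group mean, d0 was the highest group for 59 genes and the lowest for another 59, and with TMM scaling for 69 and 41. Among the eligible genes, d0 was the lowest for 54.1%, and with TMM scaling for 39.4%. The d1 group was the lowest for 42 of the 150 genes, against 12.6% of the eligible genes.

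The members that fell furthest by d12 were genes 130, 13 and 74. Gene 130 had 1385, 1294 and 1775 CPM at d0 and 30.1, 27.5 and 26.4 CPM at d1. At d12 it had 0.831, 0.427 and 0.530 CPM, which is 13 counts over the 3 libraries against 20185 at d0. The ratio of d0 to d12 CPM was 2429 (95% exact interval from the counts 1420 to 4562, counting error only), and edgeR's log2FC was -11.55 ± 0.19 (adjusted p = 5.4e-18). Gene 74 had 1093, 969 and 1323 CPM at d0 and 4.29, 6.27 and 4.90 CPM at d12, a log2FC of -8.09 ± 0.15 (edgeR, adjusted p = 1.6e-17). Gene 13 had 75.5, 163 and 80.7 CPM at d0 and 0.138, 0.142 and 0 CPM at d12, which is 2 counts in all. Its ratio of d0 to d12 was 1206, with a 95% exact counting interval of 333 to 9968 (edgeR, adjusted p = 2.9e-12). Gene 75, from the middle of the ranking, had 77.7, 154 and 62.1 CPM at d0 and 2.89, 2.55 and 2.87 CPM at d1. Its log2FC at d12 was -5.54 ± 0.34 (edgeR, adjusted p = 7.2e-11).

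The strongest rises were in genes 57, 22 and 3. Gene 57 had 7.01, 5.95 and 3.37 CPM at d0, between 0.991 and 1.22 CPM at d1, between 92.8 and 95.1 CPM at d4 and 298, 305 and 296 CPM at d12. Its level at d1 was below d0 in every library, although its mean was too low to be called there, and its log2FC at d12 was 5.41 ± 0.11 (edgeR, adjusted p = 2.4e-17). Gene 22 had 9.61, 9.49 and 3.94 CPM at d0 and 112, 98.8 and 99.8 CPM at d12, a log2FC of 3.37 ± 0.16 (edgeR, adjusted p = 1.6e-12). Gene 3 fell at d1, to between 7.15 and 10.8 CPM from between 14.9 and 23.4 CPM at d0 (log2FC -1.36 ± 0.18, edgeR adjusted p = 3e-06). It then had between 147 and 168 CPM at d4 and between 145 and 169 CPM at d12, a log2FC at d12 of 2.71 ± 0.14 (edgeR, adjusted p = 5.6e-12).

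Gene 5, near the top of the ranking, and gene 107, the most abundant member, had their lowest point at d1. Gene 5 had 293, 279 and 399 CPM at d0, 45.7, 43.6 and 37.9 CPM at d1 and between 267 and 279 CPM at d4. Gene 107 had between 1437 and 1872 CPM at d0, 335, 361 and 388 CPM at d1 and between 1378 and 1414 CPM at d8. In both, the d1 libraries were far below every other IVT library. Gene 2 had between 7.61 and 11.9 CPM at d0, between 29.2 and 31.1 CPM at d1, between 48.3 and 50.4 CPM at d4, between 17.6 and 18.6 CPM at d8 and between 15.2 and 17.6 CPM at d12. It was lowest at d0 and highest at d4. Gene 1, which had the largest dip in WD, had a log2FC of 0.05 ± 0.20 at d12 and was not called (edgeR, adjusted p = 0.82).

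**Figure D5:**
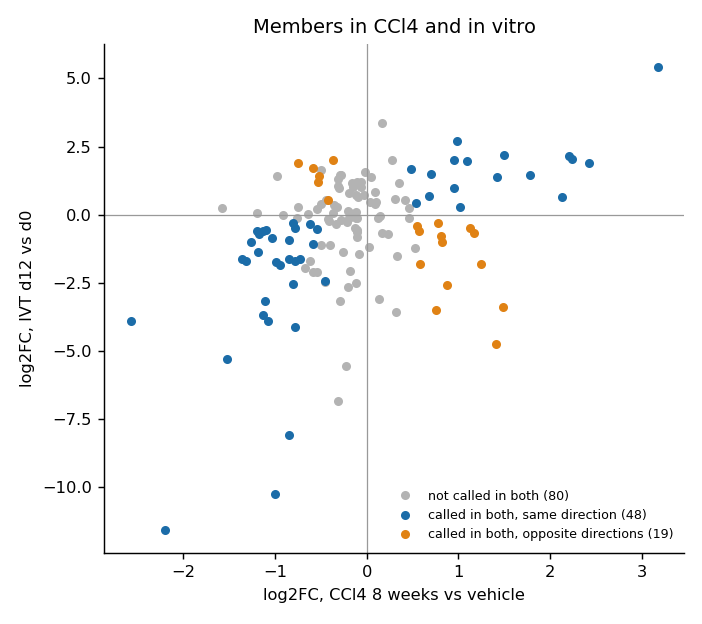
log2FC by edgeR at 8 weeks of CCl4 against vehicle (x axis) and at IVT d12 against d0 (y axis) for the 147 members with a mean log2CPM above 2 in both, 1 point per gene. Blue points were called in both in the same direction (48 genes), orange points in both in opposite directions (19 genes) and grey points in at most 1 of them (80 genes); the fitted values of genes 13 and 130, at the bottom, rest on few d12 counts.

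The CCl4 and IVT comparisons use different columns by title and were set side by side. Of the 147 genes tested in both, 32 were higher at 8 weeks of CCl4, and of these 17 were higher and 13 lower at d12. The 17 genes were 53.1% of the CCl4 list and 32.1% of the 53 genes higher at d12. Among the eligible genes, 68.3% of the 429 higher with CCl4 were also higher at d12 and 17.9% were lower. Of 45 genes lower at 8 weeks, 31 were lower and 6 higher at d12, and the 31 genes were 68.9% of the CCl4 list and 43.1% of the 72 genes lower at d12. Among the eligible genes, 58.8% of the 1222 lower with CCl4 were also lower at d12 and 24.3% were higher. Whether the 150 genes differ from the eligible genes in this was not tested. Genes 15, 130, 13 and 74 were lower in both and genes 57, 50, 35 and 7 higher in both. Gene 63 rose with CCl4 (log2FC 1.49 ± 0.43 at 8 weeks, edgeR adjusted p = 0.0087) and fell in culture (-3.39 ± 0.30 at d12, adjusted p = 9.8e-09), so a dip in WD went with different courses in the other models. Without 8-week A the CCl4 call of gene 63 was lost (edgeR, adjusted p = 0.0506).

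Within groups, the 150 genes moved together more with the library that stood apart than without it. At 12 weeks of WD they stayed above the eligible genes without that library. The median pairwise Pearson correlation of deviations from the group mean was 0.78 over the 4 libraries at 12 weeks of WD, against 0.09 among eligible genes, and 0.50 against 0.26 over the 3 libraries without A. Over the 14 CCl4 libraries it was 0.19 against 0.03, and 0.07 against 0.03 without 4-week A. Over the 15 IVT libraries it was 0.01 against 0.02. The points of each correlation are libraries of the same groups and share their depth and composition. These values are a description, and the leave-out versions were chosen after seeing the data.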

How the data were processed

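HSCs were sorted by retinoid autofluorescence, and polyadenylated RNA was sequenced. The authors deposited raw exon read counts per gene in 3 tables (WD, CCl4 and IVT), made by alignment to mm10 with STAR and unstranded counting with HOMER. HOMER kept no more than 3 reads at a position and a single transcript for each gene. Versions are not given in the sources used here. Because strand was ignored, overlapping and antisense genes cannot be told apart. The limit of 3 reads per position caps the counts of abundant short genes. The headers of the 3 tables list the same source libraries in their counting command, so each column was given to the sample whose label its title carries. Whether a column holds the library in its title was not tested. Every value column was used.

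CPM used column sums (Python 3.11.15, pandas 2.3.3). Counts were fitted per table with edgeR 4.0.16 in R 4.3.3 (TMM, filterByExpr, quasi-likelihood test, Benjamini-Hochberg adjustment over all genes); SE was |log2FC| divided by the square root of F. DESeq2 1.42.0 was an alternative. The scripts were tested on simulated data. Depth was between 2318311 and 7576527 counts per library, and intervals and floors cover counting error only.

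Genes given by number were those ranked 1 to 6, 75 and 76, the last 3 and the 3 just outside, and the 3 highest and 3 lowest called at CCl4 8 weeks, IVT d12 and in the CCl4 4-week comparison with vehicle and 8 weeks. Gene 107 was added as the most abundant after its values were seen. The members, lists and tests were chosen with earlier results of these data known. Of the 23999 identifiers 23659 matched RefSeq symbols.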

Additional observations from a re-analysis of the deposited data

Results flagged for a closer look

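Values far from the rest of their group were looked for with Dixon's test in groups of 4 libraries, which by chance picks about 1 group in 20. The total count of 2425443 in WD 12-week B was far below those of 12-week A, C and D. The 150 genes held 0.929% of the counts in WD 12-week A and 1.49% in CCl4 4-week A, each well under the rest of its group. The values of 23 genes were tested in the 3 groups of 4 libraries that the rule had not used. In these, 2 of 69 tests picked out a library, which is no more than that chance rate gives. These were gene 7, with 62.6 CPM in CCl4 4-week A, and gene 31, with 5.41 CPM in CCl4 4-week D. Both genes were named through a comparison that used the CCl4 vehicle and 4-week libraries, as were others of the 23. The tests in those groups are therefore not independent of the naming. What sets the low libraries apart at the summed level was not tested.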

How the results depend on the processing

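Of the 150 genes, 145 were found again with TMM library sizes, 135 with a pseudocount of 2 and 106 with libraries thinned to the smallest, but 97 with a chow level of at least 5 and 90 with group medians. With 2 letters, 29 (A+B), 70 (A+C), 63 (A+D), 68 (B+C), 61 (B+D) and 45 (C+D) were found again. Leaving out a library gave between 61 (without 24-week D) and 135, with 90 without 16-week C and 97, 82 and 94 without 24-week A, B and C. The median dip of the 150 stayed between 0.38 and 0.56. Requiring a 2-fold change, which by construction calls fewer genes, left 7 lower in CCl4 at 1 week, 23 higher and 13 lower at 4 weeks, 17 and 18 at 8 weeks, and 11 and 4 in the comparison of 4 weeks with vehicle and 8 weeks. In the same order, the 5188 eligible genes had 50, 99 and 131, 66 and 126, and 32 and 25. All genes had 273, 1437 and 1134, 1446 and 1263, and 900 and 315. In IVT the 2-fold requirement left 13 higher at d1, 28 higher and 44 lower at d4, 29 higher at d8, and 33 and 47 at d12. In the same order, the eligible genes had 725, 729 and 658, 703, and 702 and 741. All genes had 1932, 2170 and 2026, 2339, and 2357 and 2196. Fitting only the compared groups gave 47 lower in CCl4 at 1 week and 13 lower in the comparison of 4 weeks with vehicle and 8 weeks, which library totals put at 12; the cause was not tested. Leaving out a library gave between 14 and 38 lower genes at 1 week and between 11 and 29 in the 4-week comparison, and between 0 and 10 at WD 12 weeks, where DESeq2 gave 12, DESeq2 size factors 8 and no filter 2. The other CCl4 and IVT counts stayed within 1.5 times. At 8 weeks of CCl4, gene 3 lost its call with the letters as a block (adjusted p = 0.0828) and gene 5 with DESeq2 (0.0628), library totals (0.113) and DESeq2 size factors (0.0772). Over all genes in the fits, same-letter pairs of libraries had correlations of deviations between -0.37 and 0.68 in WD (mean 0.09), between -0.25 and 0.34 in CCl4 (mean 0.06) and between -0.07 and 0.06 in IVT (mean 0.01), and 5 of 16, 6 of 14 and 9 of 15 libraries correlated best with their own letter. The letters were therefore not taken as pairs, although C and D were both low at the 150 genes at 16 and 24 weeks. A fit with the letter as a replicate block gave 22 lower genes in CCl4 at 1 week and 41 at 8 weeks, and it changed no count of calls by over 1.5 times. Gene 13 passed the adjusted p at d12 in every fit, but without d0 B or C its mean log2CPM was not above 2.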
